A study of Mus musculus with 6 samples.

Results

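Respiratory complexes II to V were described in MIN6 cells, a mouse insulinoma line that makes insulin, through the genes for their subunits and for cytochrome c. The members were chosen by symbol alone: succinate dehydrogenase (Sdha to Sdhd), the Uqcr family and Cyc1, cytochrome c (Cycs), the Cox4 to Cox8 subunits, the Atp5 family, and the mitochondrial genes whose symbols begin with mt-Co, mt-Cytb or mt-Atp. This gave 57 of the 22298 genes in the table, of which 51 lie in the nucleus and 6 in mitochondrial DNA. RNA sequencing compared 3 control samples with 3 samples after chronic epinephrine. In the treated group epinephrine was given at 100 nM for 3 days and then withdrawn for 2 days, and the control group had none. The methods do not say when, in this scheme, the cells for RNA sequencing were collected. All 6 samples are of the same tumour-derived line. The methods give at least 3 biological replicates for the data and call the samples of a group independent. They do not say whether these were separate cultures. The p-values below judge differences between the groups by the variation among these samples, or by exact permutation of them. All 12 beta-cell markers passed the low count filter, and their summed level was 44276 to 63426 CPM (counts scaled to library size) in control and 56418 to 58620 CPM in chronic epinephrine, with Ins2 the most abundant. The treated values lay all below the controls for 5 of the 12 (Ins1, Pdx1, Nkx6-1, Neurod1 and Slc2a2) and all above for 1 (Iapp). Ins1 was 2815 to 2932 CPM in control and 1983 to 2091 CPM after epinephrine, and Iapp was 8462 to 14707 and 15379.9 to 15830.4 CPM. Gcg, the glucagon gene of alpha cells, was 175 to 212 CPM in control and 377 to 409 CPM after epinephrine, and so was higher in the same 3 samples as Cox6a2 and Atp5g1, and its part in those results was not tested.

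Complexes II, III and IV pass electrons towards oxygen in the inner mitochondrial membrane. Complex II takes them from succinate, complex III passes them from ubiquinol to cytochrome c, and complex IV passes them from cytochrome c to oxygen. Complexes III and IV pump protons, and complex V lets the protons flow back and makes ATP. In a beta cell, ATP made in this way from glucose closes potassium channels and starts insulin release. Complex II is built from nuclear genes alone, whereas complexes III, IV and V each contain subunits read from mitochondrial DNA.

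The c subunit of complex V forms the rotating ring in the membrane. It is encoded by 3 nuclear genes, Atp5g1, Atp5g2 and Atp5g3. The sequences show why their messages can be told apart although their mature product is the same. Over the last 228 bases of their coding sequences, none of the 75 encoded residues differed between any pair of the genes. At the level of bases, identity was 85.1% between Atp5g1 and Atp5g2, 79.8% between Atp5g1 and Atp5g3, and 78.5% between Atp5g2 and Atp5g3. The first 90 of these 228 bases are given below from GENCODE transcripts of GRCm38, 5′ to 3′ in the sense of the message, with the 22 positions at which the genes differ in capitals.
Atp5g1: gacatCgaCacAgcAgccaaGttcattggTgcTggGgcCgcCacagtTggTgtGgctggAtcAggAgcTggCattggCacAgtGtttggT
Atp5g2: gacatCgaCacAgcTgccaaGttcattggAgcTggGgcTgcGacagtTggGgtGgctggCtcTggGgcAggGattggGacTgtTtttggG
Atp5g3: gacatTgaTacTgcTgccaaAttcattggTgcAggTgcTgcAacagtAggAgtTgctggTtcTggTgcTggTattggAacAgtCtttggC

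Complex IV carries tissue isoforms of several subunits. Cox6a1 is the form of subunit 6a found in most tissues and Cox6a2 the form known from heart and skeletal muscle. Their coding sequences were identical at 64.6% of 294 aligned bases. A stretch of 120 bases (bases 205 to 324 of the Cox6a1 coding sequence and 160 to 279 of that of Cox6a2, sense strand) is shown because Cox6a2 alone of the pair was called. The 31 differing positions are in capitals.
Cox6a1: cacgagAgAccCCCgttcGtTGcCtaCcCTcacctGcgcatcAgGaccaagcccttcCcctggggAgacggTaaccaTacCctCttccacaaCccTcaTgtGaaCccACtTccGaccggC
Cox6a2: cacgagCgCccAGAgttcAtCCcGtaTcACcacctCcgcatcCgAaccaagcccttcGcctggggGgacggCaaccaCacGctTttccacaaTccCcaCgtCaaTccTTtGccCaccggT

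Total counts per sample ranged from 15017065 to 17457583 in control and from 15256957 to 18127171 in chronic epinephrine, so that 3 counts, taken as the floor of detection, were 0.165 to 0.200 CPM. Control 1 stood apart, with a correlation of log2 CPM over genes of 0.979 and 0.978 with the other controls against 0.993 between controls 2 and 3. Short transcripts were low in it. Relative to controls 2 and 3, the median gene of control 1 differed by -0.54 on the log2 scale for transcripts under 1000 bases and by 0.18 for transcripts over 3000 bases. Most members are short: the median length of the 51 members tested was 716 bases against 2741 for all genes tested, and 34 of the 51 were under 1000 bases. Except in the class of length just under 3000 bases, the median member was also lower in control 1 than genes of like length. It was at -0.70 beside -0.54 under 1000 bases and at -0.55 beside -0.19 in the next class of length. The longest member, Cycs (3123 bases), was at -0.73 beside 0.18. The class just under 3000 bases went the other way. Its 2 members, Sdha and Atp5a1, had a median of 0.05 beside -0.02. Control 1 was the lowest of all 6 samples for 46 of the 51, against 34.8% of all genes. The median member differed by -0.65 between control 1 and the other controls, on the log2 scale. Markers of other cell types also differed between the controls. Of the hepatocyte list, Alb was 33.9 and 82.3 CPM in controls 2 and 3 and 0.194 to 0.448 CPM in the other 4 samples, and Fgb was 4.29 and 13.5 CPM and 0 to 0.168 CPM. The most abundant of this list, Ttr, went the other way, with 837 to 1334 CPM in control and 1556 to 1744 CPM after epinephrine. The summed level of the 10 genes listed was 889 to 1487 and 1596 to 1784 CPM. It was thus higher in every treated sample, as were Cox6a2 and Atp5g1, and its part was not tested. The leukocyte list summed to 0.400 to 1.25 CPM in control and 2.19 to 3.80 CPM after epinephrine. Cd68, its most abundant gene, was 0.343 to 0.712 and 2.13 to 3.38 CPM, and the groups overlapped for the others. This sum too was higher in every treated sample, and its part was not tested. Of the 5 genes of the fibroblast list, Col1a2, Col3a1 and Dcn were highest in control 1, at 6.93, 7.64 and 2.27 CPM. The others were not: Col1a1 was 4.47 CPM in control 1, and 15.6 and 9.58 CPM in chronic epinephrine 1 and 2. Pdgfra was 0.712 CPM in control 1 and 0.840 to 0.992 CPM after epinephrine. A comparison without control 1 thus sets the 2 controls with Alb against treated samples with almost none, and its part in the results was not tested. Results are given with and without control 1.

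**Figure D1:**
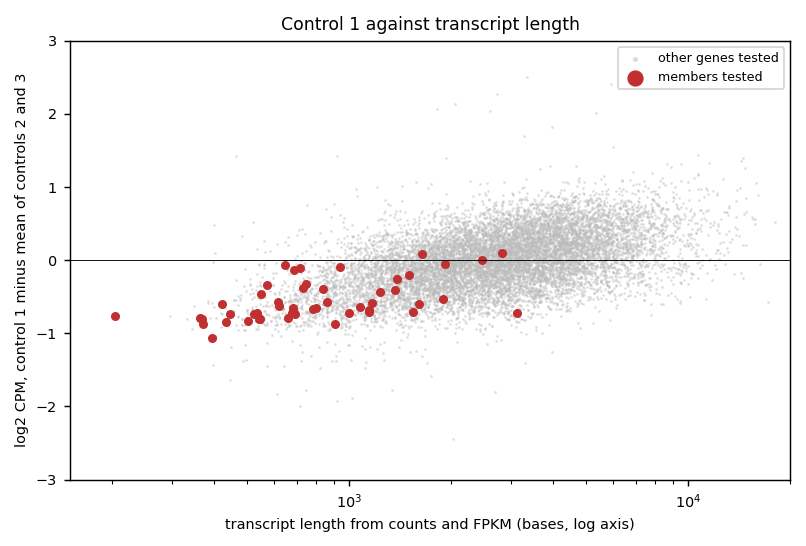
Difference between control 1 and the mean of controls 2 and 3 (log2 CPM, vertical axis) against transcript length in bases (log axis), with 1 point for each gene tested that had a length estimate. The members (red) lie mostly at the short end and mostly below 0, where the other genes of that length (grey) also lie. A few genes beyond a difference of 3 are not drawn.

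The messages of 2 members rose after chronic epinephrine, Cox6a2 of complex IV and Atp5g1 of complex V, and none fell. Uqcrq of complex III had the second largest fold change but did not pass this test with all samples (FDR = 0.0749). It was called without control 1, with DESeq2, with no low count filter and with an offset for transcript length. It was not called under the other scalings, a stricter filter, limma or a replicate block. Leaving out any other single library also left it uncalled (edgeR FDR up to 0.284). These are bulk samples, so a change in the number of cells that carry a message and a change in its amount per cell cannot be told apart. Without control 1 the test called 11 members, 5 higher (Cox6a2, Uqcrq, Atp5g1, Cyc1 and Atp5d) and 6 lower (Sdha, Sdhd, Cox6c, mt-Cytb, mt-Co2 and mt-Atp6). The call was edgeR's quasi-likelihood test at a Benjamini-Hochberg false discovery rate (FDR) under 0.05, adjusted over all 12747 genes tested (12966 without control 1). Among all genes tested, 2.02% were called higher and 0.612% lower, beside 2 of 51 members called higher (3.92%) and 0 lower, a difference of about 1 gene from the background share. Without control 1 the background was 12.1% higher and 9.46% lower, and the members' shares, 9.80% and 11.8%, were close to it.

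Of the 57 members, 51 passed the low count filter and were tested. The tissue isoforms Cox8b, Cox8c and Cox7b2 had 0 counts in all 6 samples, as did Cox5b-ps and a second row named Atp5o. Cox4i2, an isoform of subunit 4 known from lung, had 0 to 3 counts per sample. Among those tested, 44 had a higher mean after epinephrine and 7 a lower one, with a median log2 fold change of 0.15, beside a median of -0.00 over all genes. Without control 1 the split was 24 higher and 27 lower and the median -0.02. With all samples, 5 members were higher (9.80%) and 1 lower (1.96%) at an unadjusted p under 0.05, beside 9.19% higher and 7.91% lower of all genes. The 3 treated values lay all above the 3 control values for 10 members (19.6%, beside 14.3% of all genes) and all below for 1 member (1.96%, beside 13% of all genes). The 10 were Cyc1, Uqcrc1, Uqcrq, Cox4i1, Cox5a, Cox5b, Cox6a2, Atp5d, Atp5g1 and Atp5g2, and the 1 was Sdha.

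**Figure D2:**
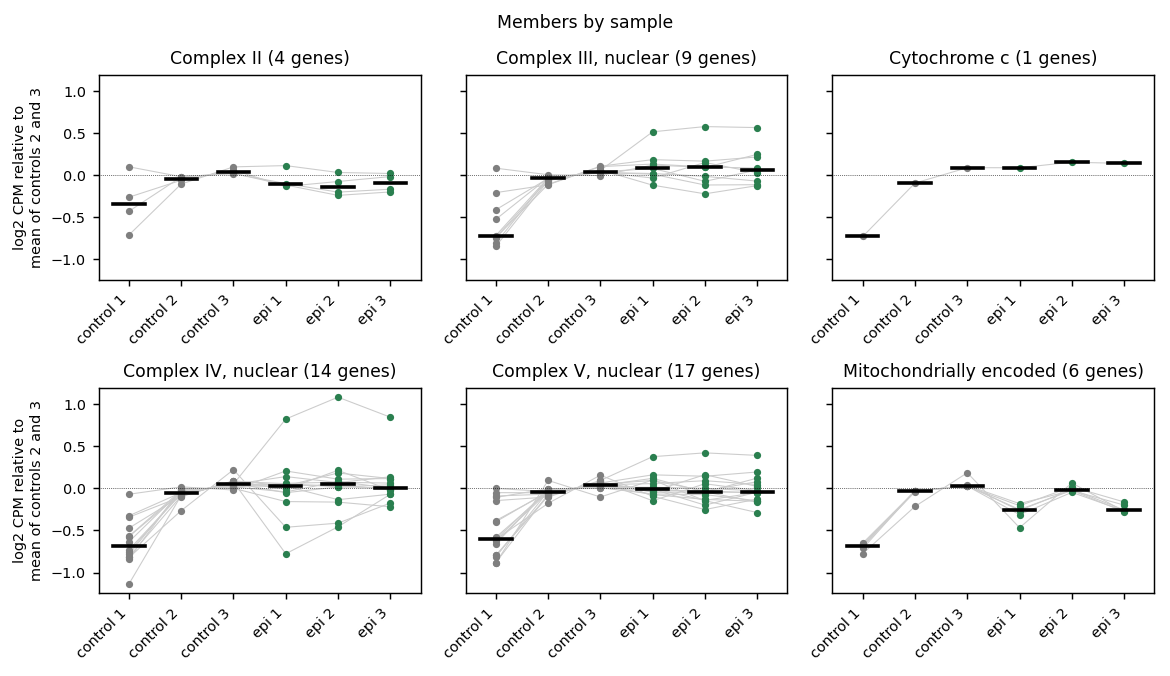
Level of each member tested in each sample, as log2 CPM relative to the mean of controls 2 and 3, with 1 line for each gene and black bars for the median of the panel. The median is lowest in control 1 in every panel. The nuclear panels of the 3 epinephrine samples lie near controls 2 and 3 except for a few genes, and the mitochondrial panel has a median of -0.26, -0.017 and -0.26 in chronic epinephrine 1 to 3.

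No member of complex II was called with all samples, and 2 were lower without control 1. Its 4 subunits, all nuclear, were split 2 higher and 2 lower, with a median log2 fold change of -0.02 and of -0.12 without control 1. Sdha, the flavoprotein that oxidises succinate, had 187, 172 and 177 CPM in controls 1 to 3 and 163, 152 and 156 CPM in chronic epinephrine 1 to 3. Every treated value was below every control value, and this long transcript was not low in control 1. The log2 fold change was -0.19 ± 0.08 (SE; edgeR FDR = 0.276), and -0.16 without control 1 (FDR = 0.0336). Sdhd, one of the membrane anchors, had 90.1, 119.6 and 123 CPM in control and 112, 103 and 106 CPM after epinephrine. Its groups overlapped through control 1 alone, and without that library the change was -0.18 (edgeR FDR = 0.0166). Sdhb, the iron-sulfur subunit, had 51.7, 78.6 and 90.5 CPM in control and 91.5, 86.5 and 85.8 CPM after epinephrine. Control 1 was far below the other 5 samples. The log2 fold change of Sdhb was 0.26 (edgeR FDR = 0.512) and 0.06 without control 1 (FDR = 0.574). Sdhc, the other anchor, had a log2 fold change of 0.01 (FDR = 0.979) that turned to -0.07 without control 1 (FDR = 0.410).

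The mean level was higher in all 9 nuclear members of complex III, with a median log2 fold change of 0.20 that was 0.05 without control 1. None was called with all samples, and 2 were without control 1. Uqcrq (subunit VII, a small protein beside cytochrome b) had the largest difference. Its levels were 57.2, 91.8 and 99.4 CPM in controls 1 to 3 and 137, 143 and 141 CPM in chronic epinephrine 1 to 3. The 3 treated samples lay within a few CPM of each other and well above the highest control. The log2 fold change was 0.76 ± 0.18 (SE; edgeR FDR = 0.0749), a 1.69-fold difference. It was 0.55 without control 1 (FDR = 2.25e-08) and 0.60 with an offset that takes out each sample's trend with transcript length (FDR = 0.0053). The gene lies on the reverse strand of chr11:53427922-53430831 (GRCm38), its exons overlap no other annotated gene, and none of its 50-base stretches occurs in another annotated transcript.

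The catalytic subunits of complex III differed less. Cyc1, cytochrome c1, had 70.9, 75.7 and 88.2 CPM in control and 93.1, 92.0 and 95.2 CPM after epinephrine. The groups did not overlap, and the log2 fold change of 0.25 (edgeR FDR = 0.231) became 0.19 without control 1 (FDR = 0.0291). Uqcrfs1, the Rieske iron-sulfur protein, had a log2 fold change of 0.15 (FDR = 0.59) and 0.02 without control 1. Uqcrc1 and Uqcrc2, the core proteins, had 0.13 and 0.08, and 0.15 and -0.07 without control 1. At the low end was Uqcr10, another small subunit, with 24.9, 42.8 and 46.7 CPM in control and 41.2, 38.4 and 41.1 CPM after epinephrine. Its log2 fold change was 0.07 (edgeR FDR = 0.884) and turned to -0.15 without control 1 (FDR = 0.119). Uqcr11, Uqcrb and Uqcrh, the remaining small subunits, had 0.31, 0.25 and 0.20 with all samples, and 0.11, 0.05 and -0.02 without control 1.

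Cytochrome c, the mobile carrier between complexes III and IV, had 113, 175 and 199 CPM in control and 199, 208 and 206 CPM after epinephrine. Control 1 was far below the rest, and control 3 reached the lowest treated value. The log2 fold change of Cycs was 0.33 (edgeR FDR = 0.399), and 0.13 without control 1 (FDR = 0.105). Of the 50-base stretches of Cycs, 26.2% also occur in other annotated genes, such as Gm10053, so its count may be shared with these copies. How the counting assigned reads that match several genes is not given in the sources used here.

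**Figure D3:**
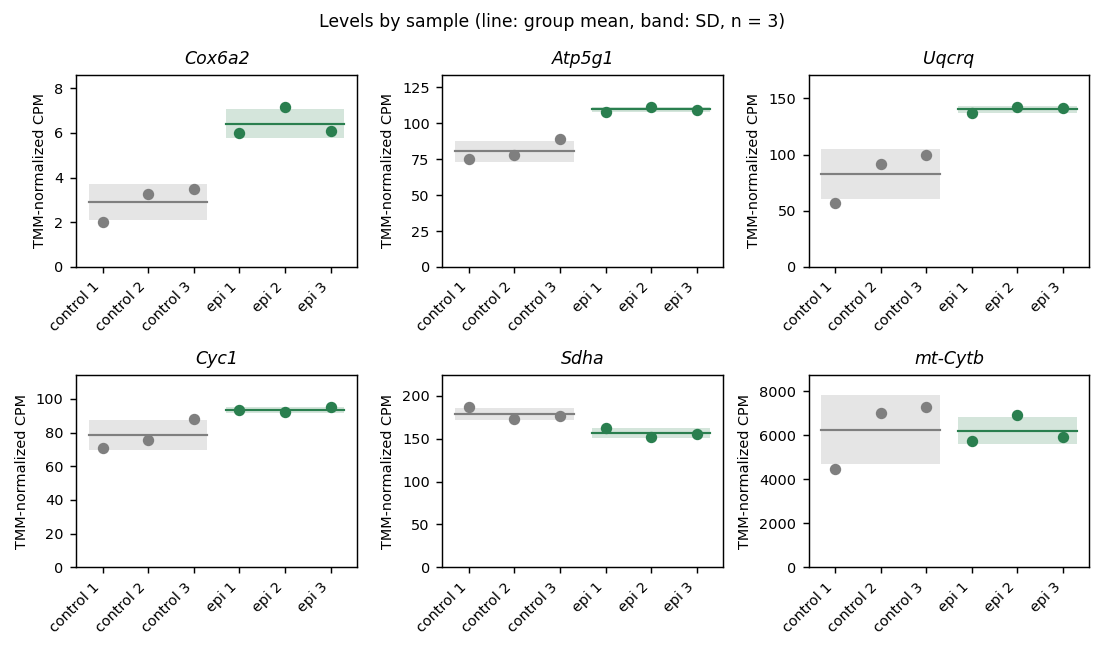
TMM-normalized CPM of 6 members in each sample, from 0, with the group mean as a line and the SD as a band (n = 3). Cox6a2, Atp5g1, Uqcrq and Cyc1 lie higher in all 3 epinephrine samples and Sdha lower, while the groups overlap for mt-Cytb.

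Complex IV had 14 of its 19 nuclear members tested, 12 with a higher and 2 with a lower mean. Its median log2 fold change was 0.20, and 0.02 without control 1. Cox6a2 had the largest fold change of all the members. It had 2.01, 3.26 and 3.50 CPM in controls 1 to 3 and 5.99, 7.17 and 6.08 CPM in chronic epinephrine 1 to 3, from 31, 57 and 56 counts against 101, 128 and 92. The gene was expressed at a low level, and all 3 treated samples were above all 3 controls. The rise was 2.19-fold (log2 fold change 1.13 ± 0.21, SE; edgeR FDR = 0.0333), and 1.90-fold without control 1 (0.93, FDR = 0.000477). With the length offset the log2 fold change was 0.96 (FDR = 0.0103). The call depended on the other libraries. Without control 2 or control 3 the FDR was 0.0983 and 0.0578. Without chronic epinephrine 1, 2 or 3 it was 0.162, 0.198 and 0.145. The log2 fold change stayed between 0.93 and 1.27 when any 1 library was left out.

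Cox6a2 is read on the reverse strand of chr7:128205435-128206387 (GRCm38). Of its exon bases, 10.3% overlap Itgad on the opposite strand, and the sources used here do not say whether the library kept strand. Itgad had 1, 0 and 0 counts in control and 2, 5 and 3 after epinephrine, against the 92 to 128 counts of Cox6a2. Since Cox6a2 is known from muscle, muscle markers are given beside it. The summed level of the 14 markers listed was 2.52 to 3.94 CPM in control, 119 and 86.6 CPM in chronic epinephrine 1 and 2, and 1.79 CPM in chronic epinephrine 3. Acta1, skeletal actin, made up most of it, with 69.4 and 58.6 CPM in chronic epinephrine 1 and 2 and 0.859 CPM in chronic epinephrine 3. Ckm, Tnnt3, Myh2, Myh4 and Atp2a1 were at 0 in the controls and in chronic epinephrine 3. Actc1, Mb, Tnnt2 and Ryr1 stayed under 1 CPM in every sample. The other 10 were above 1 CPM in chronic epinephrine 1 and 2 and under 1 CPM in chronic epinephrine 3. Of these 10, Mylpf overlapped its controls, at 1.29 to 2.06 CPM in control and 2.19 and 1.57 CPM in chronic epinephrine 1 and 2. Cox6a2 was 5.99 and 7.17 CPM in the 2 samples with high muscle markers and 6.08 CPM in chronic epinephrine 3. The fold change from chronic epinephrine 3 alone was 1.05 on the log2 scale (edgeR FDR = 1.00 with 1 treated sample).

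The other tissue isoforms of complex IV were low and were not called. Cox7a1, the muscle form of subunit 7a, had 1.29, 2.69 and 3.00 CPM in control and 1.66, 2.07 and 2.71 CPM after epinephrine. Its groups overlapped, and its log2 fold change was -0.13 (edgeR FDR = 0.876) and -0.41 without control 1 (FDR = 0.306). Cox6b2, the testis form of subunit 6b, had 0.971, 1.43 and 2.00 CPM in control and 1.25, 1.29 and 1.52 CPM after epinephrine. These values overlapped too, with a log2 fold change of -0.12 (FDR = 0.867) and -0.34 without control 1 (FDR = 0.528). Testis markers were nearly undetected, with a summed level of 0 to 0.188 CPM.

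The forms of these subunits found in most tissues differed little. Cox6a1 had 141, 167 and 191 CPM in control and 183, 203 and 194 CPM after epinephrine, with 1 control among the treated values. Its log2 fold change was 0.22 (edgeR FDR = 0.391) and 0.11 without control 1 (FDR = 0.186). Cox6b1 had 68.7, 98.6 and 106 CPM in control and 105, 105 and 101 CPM after epinephrine. Cox7a2 had 60.6, 103 and 106 CPM in control and 101, 111 and 105 CPM after epinephrine. For both, control 1 was far below a narrow band formed by the other 5 samples, and the log2 fold change of 0.19 and 0.23 became 0.02 and 0.02 without it. Cox8a had 223, 290.3 and 327 CPM in control and 321, 313 and 310.2 CPM after epinephrine, and Cox7b had 41.6, 65.9 and 72.0 and 66.5, 69.8 and 71.1 CPM. Their log2 fold changes were 0.17 and 0.21, and 0.03 and 0.00 without control 1.

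Among the remaining subunits of complex IV, Cox4i1, the form of subunit 4 found in most tissues, had 112, 136 and 145 CPM in control and 155, 148 and 155 CPM after epinephrine. The groups did not overlap, but the log2 fold change of 0.22 did not pass the test (edgeR FDR = 0.348; 0.12 without control 1, FDR = 0.129). Cox5a and Cox5b, which sit on the matrix side, also had groups that did not overlap, with log2 fold changes of 0.17 and 0.23 (FDR = 0.333 and 0.467). Without control 1 these were 0.15 and 0.07 (edgeR FDR = 0.111 and 0.434). Cox7c and Cox7a2l had 0.29 and 0.13, and 0.07 and -0.06 without control 1. Cox6c was the only nuclear member of complex IV called lower without control 1. It had 88.9, 159 and 159 CPM in control and 143, 142 and 137 CPM after epinephrine, with control 1 far lowest and controls 2 and 3 highest. Its log2 fold change was 0.05 with all samples (edgeR FDR = 0.925) and -0.18 without control 1 (FDR = 0.0136).

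Isoform shares compare the members of a pair within each sample, per length, as the share of the summed FPKM, a count scaled to transcript length and library size. Cox6a2 made up 1.44% ± 0.226 (SD, n = 3) of the Cox6a1 and Cox6a2 total in control and 2.71% ± 0.158 (n = 3) after epinephrine. The shares of control 1, 1.18%, and of controls 2 and 3, 1.61% and 1.52%, all lay below the 2.68%, 2.88% and 2.57% of the treated samples. The p-value was 0.1 by exact permutation of the samples (two-sided), which is as low as 3 samples against 3 can reach. Cox7a1 went from 4.04% ± 0.563 (SD, n = 3) to 3.28% ± 0.766 (n = 3) of its pair (exact permutation p = 0.2). Cox6b2 went from 1.89% ± 0.283 to 1.52% ± 0.261 of its pair (exact permutation p = 0.3, n = 3 in each group). The highest share of a tissue form in any sample was 4.51%, for Cox7a1 in control 3, and Cox4i2 was at 0.0687% and 0.0692% of the Cox4i pair in the 2 groups.

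**Figure D4:**
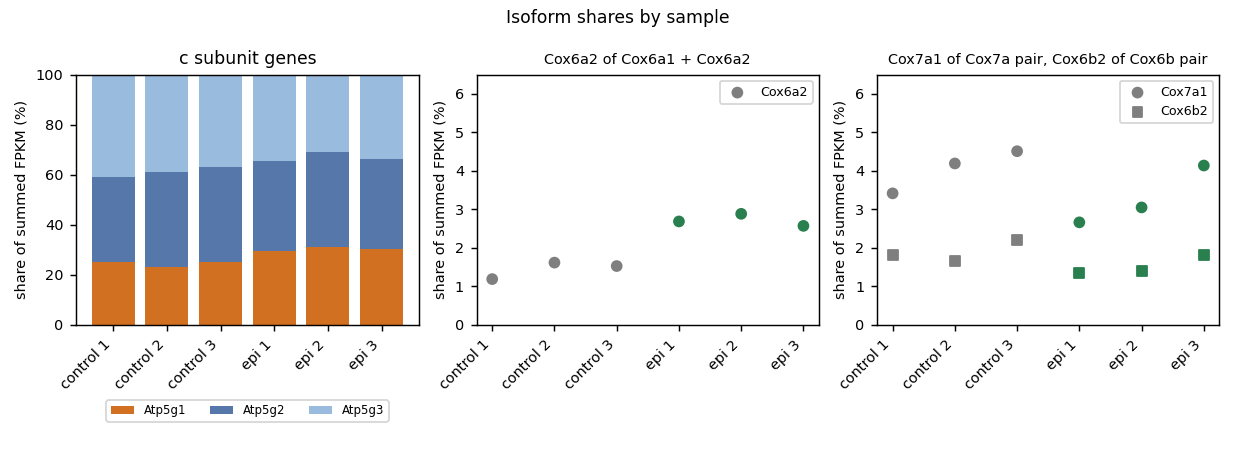
Shares of summed FPKM (percent) in each sample for the 3 c subunit genes of complex V (stacked bars), for Cox6a2 in its pair, and for Cox7a1 and Cox6b2 in their pairs (grey, control; green, epinephrine). The Atp5g1 and Cox6a2 shares are higher in every treated sample, and the Cox7a1 and Cox6b2 shares overlap between groups.

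Complex V had 17 of its 18 nuclear members tested, 15 with a higher and 2 with a lower mean. Its median log2 fold change was 0.14, and -0.03 without control 1. Atp5g1 was the member called. It had 75.2, 77.4 and 88.7 CPM in controls 1 to 3 and 108, 111 and 109 CPM in chronic epinephrine 1 to 3. The treated samples were close to each other and all above the controls, and control 1 was close to control 2. The rise was 1.36-fold (log2 fold change 0.44 ± 0.09, SE; edgeR FDR = 0.0413), and 1.32-fold without control 1 (0.40, FDR = 1.53e-05). With the length offset the log2 fold change was 0.25 and was not called (FDR = 0.249). With the offset and without control 1 it was 0.39 (FDR = 4.24e-06). The FDR without control 2 was 0.148, and without chronic epinephrine 1, 2 or 3 it was 0.217, 0.226 and 0.209, with log2 fold changes of 0.41 to 0.46.

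The other c subunit genes were not called. Atp5g2 had 105, 133 and 141 CPM in control and 143, 146 and 141 CPM after epinephrine, so that the groups did not overlap but control 3 almost reached the lowest treated sample. Its log2 fold change was 0.18 (edgeR FDR = 0.466) and 0.07 without control 1 (FDR = 0.421). Atp5g3 had 125, 134 and 135 CPM in control and 134, 117 and 130.3 CPM after epinephrine, with overlapping groups, a log2 fold change of -0.05 (FDR = 0.827) and -0.08 without control 1 (FDR = 0.344). The Atp5g1 share of the FPKM summed over the 3 genes went from 24.4% ± 0.987 (SD, n = 3) in control to 30.2% ± 0.932 (n = 3) after epinephrine, with no overlap (exact permutation p = 0.1, the smallest possible). The Atp5g3 share was 39.0% ± 2.07 in control and 33.1% ± 1.90 after epinephrine, also with no overlap (exact permutation p = 0.1, n = 3 in each group). The Atp5g2 share was 36.6% and 36.7% (exact permutation p = 0.9). Without control 1 the difference in the Atp5g1 share was 6.12 percentage points, against 5.84 with it. Shared sequence limits this reading. Of the 50-base stretches of Atp5g1 and Atp5g2, 11.1% and 38.4% also occur in other annotated genes, led by Gm10039 and Gm10175, and 0% of those of Atp5g3.

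The promoters of the c subunit genes are shown because the genes encode 1 mature protein and Atp5g1 alone of them was called with all samples. Each is 300 bases, from 250 before to 50 after the start given by RefSeq on GRCm38.p6, 5′ to 3′ on the gene's strand. Capitals mark matches on either strand to CCAAT (the core of the NF-Y site), CACGTG (the E-box), CCGGAAG (an ETS core) or GCGCATGC (an NRF1 core). Overlapping matches form a single run of capitals. The Atp5g1 window (reverse strand, chr11:96075582-96075881) held 5 CCAAT matches and 1 E-box.
Atp5g1: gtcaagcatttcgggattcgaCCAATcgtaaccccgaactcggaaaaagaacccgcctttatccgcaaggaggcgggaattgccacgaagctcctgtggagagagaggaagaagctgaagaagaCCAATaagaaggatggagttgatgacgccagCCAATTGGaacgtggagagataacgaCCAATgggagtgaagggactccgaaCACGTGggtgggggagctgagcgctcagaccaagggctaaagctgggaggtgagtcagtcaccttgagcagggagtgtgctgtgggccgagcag
The Atp5g2 window (reverse strand, chr15:102670998-102671297) held 2 NRF1 core matches, which are the 2 strands of 1 palindromic run.
Atp5g2: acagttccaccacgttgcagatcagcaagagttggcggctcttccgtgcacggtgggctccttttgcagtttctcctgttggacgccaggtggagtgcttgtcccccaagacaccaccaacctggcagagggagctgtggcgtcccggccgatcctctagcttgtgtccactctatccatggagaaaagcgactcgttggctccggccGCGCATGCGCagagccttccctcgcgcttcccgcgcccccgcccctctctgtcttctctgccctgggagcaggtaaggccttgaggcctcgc
The Atp5g3 window (reverse strand, chr2:73911277-73911576) held 1 CCAAT match and 1 E-box.
Atp5g3: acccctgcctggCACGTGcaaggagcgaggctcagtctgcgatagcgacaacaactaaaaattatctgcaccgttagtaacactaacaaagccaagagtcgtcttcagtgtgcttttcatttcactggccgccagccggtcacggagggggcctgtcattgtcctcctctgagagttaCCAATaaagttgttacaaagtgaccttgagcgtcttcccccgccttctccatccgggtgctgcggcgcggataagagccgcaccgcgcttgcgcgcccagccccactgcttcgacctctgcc
Among all 32851 windows of the table, CCAAT was found in 37.4%, the E-box in 7.15%, the ETS core in 8.86% and the NRF1 core in 2.71%. The 38 windows of the nuclear members (35 of 45 matched) held CCAAT in 21, the E-box in 4, the ETS core in 13 and the NRF1 core in 8, or 55.3%, 10.5%, 34.2% and 21.1%. These are matches of letters and not measured binding.

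The other members of complex V lay within a narrow range. Atp5a1 and Atp5b form the catalytic head. Per length, Atp5b was the most abundant nuclear member of complex V, at 420.0 FPKM over all samples, and Atp5k the least, at 38.4 FPKM. Atp5a1 had 661, 644 and 677 CPM in control and 660.5, 599 and 639 CPM after epinephrine, with overlapping groups and a log2 fold change of -0.06 (edgeR FDR = 0.742). Atp5b had a log2 fold change of 0.07 (FDR = 0.732) and 0.05 without control 1. Atp5d, the delta subunit of the central stalk, had 115, 116 and 127 CPM in control and 136, 135 and 139.6 CPM after epinephrine. Its groups did not overlap, and the log2 fold change of 0.20 (FDR = 0.266) became 0.17 without control 1 (FDR = 0.0299). Atp5c1 and Atp5e, the gamma and epsilon subunits of the same stalk, had log2 fold changes of 0.14 and 0.02, and -0.03 and -0.15 without control 1. Atp5o and Atp5pb of the peripheral stalk had 0.19 and 0.17, and 0.07 and -0.00 without control 1. Atp5h and Atp5j of the same stalk had 0.06 and 0.09, and -0.12 and -0.09 without control 1. The small membrane subunits Atp5k, Atp5l, Atp5j2, Atp5md and Atp5mpl had 0.14 to 0.28 with all samples and -0.10 to 0.05 without control 1, and none of these was called.

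**Figure D5:**
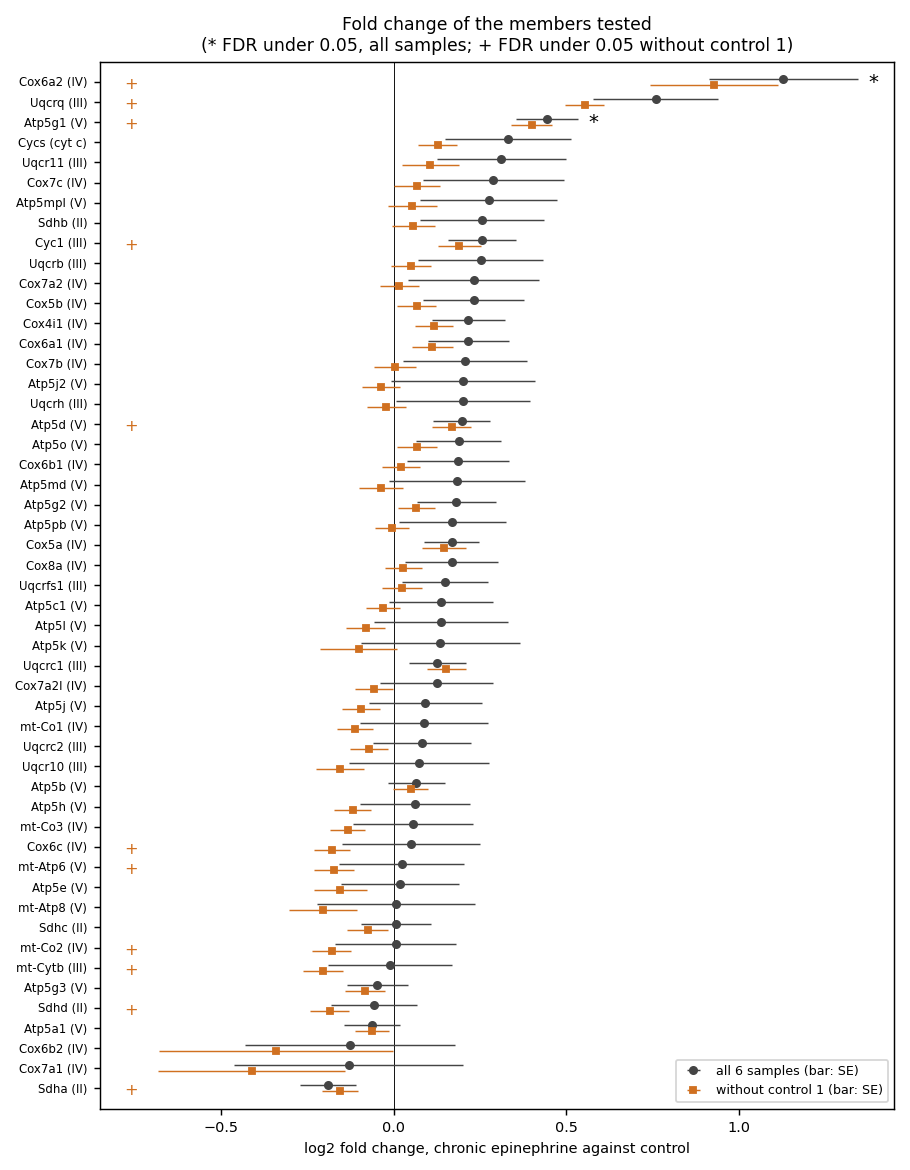
Log2 fold change of chronic epinephrine against control for the 51 members tested, with all 6 samples (dark circles) and without control 1 (orange squares), each with its SE. A star marks an FDR under 0.05 with all samples (Cox6a2 and Atp5g1) and a plus sign an FDR under 0.05 without control 1 (11 members). Most dark circles lie right of 0, and the squares lie on both sides of it.

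The 6 mitochondrially encoded members did not rise. They were far more abundant than the nuclear members, with a median of 9837 FPKM over all samples against 153 and 170 FPKM for the nuclear members of complexes IV and V. Their share of all counts was 4.07%, 6.27% and 6.49% in controls 1 to 3 and 5.43%, 6.27% and 5.50% in chronic epinephrine 1 to 3. Chronic epinephrine 1 and 3 thus lay between control 1 and the other controls, and chronic epinephrine 2 was level with control 2. The nuclear members made up 0.514%, 0.631% and 0.670% in control and 0.664%, 0.640% and 0.652% after epinephrine.

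Gene by gene, control 1 was the lowest sample for all 6. mt-Cytb, cytochrome b of complex III, had 4452, 7002 and 7283 CPM in control and 5753, 6916 and 5938 CPM after epinephrine. mt-Co1, the catalytic subunit of complex IV, had 18528, 29872 and 30917 CPM in control and 26356, 30808 and 27194 CPM after epinephrine. In both, control 1 was lowest and chronic epinephrine 2 was the highest treated sample. mt-Co2, which takes electrons from cytochrome c, had 5852, 8992 and 9374 CPM in control and 7715, 9033 and 7582 CPM after epinephrine. mt-Co3, the third core subunit, had 6825, 10568 and 11090.4 CPM in control and 9555, 10642 and 9441 CPM after epinephrine. Here too control 1 was lowest and chronic epinephrine 2 the highest treated sample, with the groups overlapping. mt-Atp6, the channel subunit of complex V, had 3784, 5936 and 6262 CPM in control and 5085, 6053 and 5107 CPM after epinephrine. mt-Atp8, whose reading frame overlaps that of mt-Atp6, had 126, 187 and 246 CPM in control and 157, 226 and 179 CPM after epinephrine, with chronic epinephrine 2 between controls 2 and 3.

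With all samples, the 6 log2 fold changes ran from -0.01 to 0.09 with a median of 0.02, and none was called by edgeR (0 at an unadjusted p under 0.05, and 0 by DESeq2). Without control 1 all 6 were lower, with a median of -0.18. Then mt-Cytb was at -0.20 (edgeR FDR = 0.0106), mt-Co2 at -0.18 (FDR = 0.0232) and mt-Atp6 at -0.17 (FDR = 0.0342). mt-Co1, mt-Co3 and mt-Atp8 were at -0.11, -0.13 and -0.20 and were not called (FDR = 0.13, 0.0615 and 0.142). With the length offset and all samples the median was -0.13, with 1 gene higher. The direction for the mitochondrial genes thus changed with control 1 and with the offset. Of the 50-base stretches of mt-Co2, mt-Co3, mt-Atp6 and mt-Co1, 100%, 99.9%, 99.5% and 51.1% also occur in nuclear copies in the annotation, and 0% of those of mt-Cytb and mt-Atp8.

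Other genes of the pathway were taken from a list of 45 assembly factors, accessory subunits and supercomplex factors, of which 41 were tested. Their means were higher for 27 and lower for 14, with a median log2 fold change of 0.09 and of -0.03 without control 1. With all samples, edgeR called 0 of them, with 5 of 41 higher and 0 lower at an unadjusted p under 0.05 (beside 9.19% and 7.91% of all genes), and DESeq2 called 1. The highest was Sco2, a copper chaperone of complex IV, at 2.11 ± 0.701 CPM (SD, n = 3) in control and 3.59 ± 0.781 CPM (n = 3) after epinephrine (log2 fold change 0.78, edgeR FDR = 0.213; 0.88 without control 1, FDR = 0.0267). The lowest was Sdhaf4, an assembly factor of complex II, with a log2 fold change of -0.29 (FDR = 0.528) that was -0.52 without control 1 (FDR = 0.000213). Without control 1, edgeR called 3 of the list higher, Sco2, Ndufa4 and Higd1a, and 3 lower, Sdhaf4, Cmc1 and Atpif1, a smaller share of the 41 in each direction than the 12.1% and 9.46% of all genes. Ndufa4, a subunit of complex IV despite its name, had a log2 fold change of 0.56 (FDR = 0.209) and 0.33 without control 1 (FDR = 0.000789). Higd1a, a small protein that binds complex IV, had 0.43 (FDR = 0.0838) and 0.34 without control 1 (FDR = 0.00243). Atpif1, the inhibitor of complex V, had 0.01 (FDR = 0.983) and -0.22 without control 1 (FDR = 0.0202).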

How the data were processed

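RNA from 6 MIN6 samples (control, n = 3; chronic epinephrine, n = 3) was sequenced on an Illumina NovaSeq by a sequencing company. The authors deposited a table of estimated counts per gene, not normalized, with FPKM values computed by the authors beside them. The submitters' processing notes name the build GRCm38; the aligner and counting tool are not given in the sources used here. Of the deposited counts, 8.34% were not whole, and all were rounded. Genes passing filterByExpr (minimum count 10) were scaled by TMM and tested with edgeR 4.0.16 (quasi-likelihood, R 4.3.3), and p-values were adjusted by Benjamini and Hochberg's method across every gene that passed. CPM and fold changes come from this fit. A prior count of 2 was used for log2 CPM, as in the comparison by transcript length, and not for these. Isoform shares used the deposited FPKM with exact permutation tests. The transcript length offset was a spline with 4 degrees of freedom per sample, with lengths from the ratio of count to FPKM. DESeq2 1.42.0 and limma 3.58.1 (on log2 FPKM) gave alternatives. The analysis was tested on simulated data.

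The members, gene lists and tests were chosen with earlier results of these data known. Values are given for members called with all samples, mitochondrial genes, isoform pairs, the highest and lowest nuclear member of each complex, and the 5 members called without control 1 with the smallest p in each direction. Members outside this rule were named after their values were seen. Depth limits precision mainly for Cox6a2, Cox6b2 and Cox7a1, and floors cover counting error only. Annotation was GENCODE M21, and overlap and shared sequence were read from it. Columns of the table that matched no sample numbered 0.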

Additional observations from a re-analysis of the deposited data

How the results depend on the processing

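The 2 calls among the members were the result that moved most with the processing. The count was 1 with upper quartile scaling (Cox6a2), 2 with DESeq2 size factors, with library size alone, with at least 10 counts in every sample and with limma on log2 FPKM plus 1 or plus 0.1, and 3 with DESeq2 and with no filter (Cox6a2, Atp5g1 and Uqcrq). It was 2 with the transcript length offset, which called Uqcrq and Cox6a2. Leaving out 1 library at a time gave 0 to 11, with 11 without control 1, 1 without control 3, and 0 without control 2 or any of chronic epinephrine 1, 2 and 3. A pair of settings was added once the data had been seen. The length offset without control 1 called 14, and leaving out chronic epinephrine 1 and 2 together, where 1 treated library is assumed to vary like the controls, called 0. Calls in the list of assembly factors went from 0 to 1 with DESeq2, to 6 with the offset without control 1, and to between 0 and 6 without 1 library, the 6 being without control 1. The share of all genes called was taken only for the edgeR test described above, with all samples and without control 1. Counts called under the other settings thus have no background share beside them. The difference in the Cox6a2 share went from 1.27 to 1.50 percentage points with expected counts. The median log2 fold change of the nuclear members went from 0.17 to 0.017 without control 1, 0.020 with the length offset and 0.0077 with both, and was 0.15 to 0.27 under the others. That of the mitochondrial members went from 0.015 to -0.18 without control 1, -0.13 with the offset and -0.18 with both, and was also below 0 with library size alone (-0.0077), without chronic epinephrine 2 (-0.070) and without chronic epinephrine 1 and 2 (-0.058). The cause was not tested for any of these.

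With the replicate block, 0 members were called. Cox6a2 was at 1.15 (edgeR FDR = 0.0558) and Atp5g1 at 0.45 (FDR = 0.105). The numbers were not taken as pairs, since same-numbered samples had correlated deviations of 0.05, 0.07 and -0.05 and 2 of 6 samples correlated best with their own number. mt-Cytb turned to 0.019 under the block.

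Over all 51 members tested, the log2 fold change was above 0 for 44 with all samples, 29 with the length offset and 24 without control 1, so many members changed sign. Among the 28 members whose values were to be given in every sample, those that did are listed here, and none of these was called with all samples. With the length offset, Cox6c was at -0.14, Cox8a at -0.037, mt-Atp6 at -0.14, mt-Atp8 at -0.31, mt-Co2 at -0.16, mt-Co3 at -0.090 and Uqcr10 at -0.13. With the offset and without control 1, Cox6c was at -0.19, Cox7b at -7.73e-05, mt-Atp6 at -0.18, mt-Atp8 at -0.23, mt-Co1 at -0.12, mt-Co2 at -0.19, mt-Co3 at -0.14 and Uqcr10 at -0.17. With library size alone, mt-Atp8 was at -0.016 and mt-Co2 at -0.017. Without chronic epinephrine 1 and 2, Cox6b2 was at 0.051, Cox7a1 at 0.22, mt-Atp6 at -0.060, mt-Atp8 at -0.055, mt-Co2 at -0.090 and mt-Co3 at -0.0072. Leaving out 1 library at a time gave ranges that cross 0 for Atp5g3 (-0.085 to 0.0095), Cox6b2 (-0.34 to 0.16), Cox6c (-0.18 to 0.18), Cox7a1 (-0.41 to 0.088), Sdhd (-0.18 to 0.024), Uqcr10 (-0.15 to 0.24), mt-Atp6 (-0.17 to 0.16), mt-Atp8 (-0.20 to 0.26), mt-Co1 (-0.11 to 0.22), mt-Co2 (-0.18 to 0.13), mt-Co3 (-0.13 to 0.18) and mt-Cytb (-0.20 to 0.11). Among these 28, Cox6c, Uqcr10 and 5 mitochondrial members turned below 0 without control 1. Cox6b2 had 15 to 32 counts per sample and Cox7a1 20 to 48, so their fold changes had the widest errors of the members (SE 0.30 and 0.33).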
